A study of Mus musculus with 14 samples.

Results

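V2a interneurons and motoneurons of the mouse spinal cord were compared by messenger RNA sequencing. Both are ventral neurons of adjacent domains that use the LIM homeodomain factor Lhx3, and the comparison asks which genes they hold in common and which set them apart. It rests on 1 V2a library and 6 wild-type (WT) motoneuron libraries, 7 of the 13 libraries with a column in the tables and of the 14 samples described. Of 23523 gene entries, 16319 had a mean signal of at least 1 over these 7 libraries and were tested. A gene was taken as shared and high when its signal was at least 100 in V2a and in the motoneuron mean, with V1 and V3 interneurons each under 50% of the smaller of these values, and 23 genes met this rule. A gene was taken as outside the motoneuron range when V2a lay at least 1 log2 unit above the highest or below the lowest motoneuron library.

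The V2a cells came from Rosa26:LSL:tdTomato embryos with a cre driver of the V2a class and were sorted as tdTomato positive, so that activity of the driver in a cell or its precursors turned on the label. V1 and V3 interneurons carried the same tdTomato reporter with En1:cre or Sim1:cre and gave 1 library each. The WT motoneurons came from Hb9::gfp embryos and were sorted as GFP positive, with the promoter of Mnx1 (Hb9) driving the label. A further 2 motoneuron libraries came from 218DKO embryos, which lack microRNA-218, with the same Hb9::gfp reporter. All these cells were taken from E12.5 embryos, out of microdissected spinal cords dissociated with papain, and the background of the V2a, V1, V3 and WT samples was wild type. Embryonic stem cells of the mouse (mES), differentiated with retinoic acid and a sonic hedgehog agonist and taken at day 4, gave 1 library of Olig2:cre;Rosa26:LSL:tdTomato motoneuron progenitors, sorted as tdTomato positive, and 1 of unsorted neural progenitors with no reporter. Cell type, reporter and sort differ together between V2a and motoneurons and cannot be told apart. Nothing in the labels tells whether the replicates were separate embryos or litters, and the p-values then reflect the spread among these libraries alone, part of which may be technical.

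In the developing spinal cord, Lhx3 and its relative Lhx4 are made both by motoneurons and by V2 interneurons. In V2 cells Lhx3 binds the adaptor Ldb1 and drives the interneuron programme. In motoneurons Isl1 joins the complex and turns it toward the motoneuron programme, and Mnx1 represses V2a genes there. V2a neurons are glutamatergic excitatory interneurons, whereas motoneurons use acetylcholine and send their axons out of the cord to muscle.

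The deposited value is a signal per gene, scaled by transcript length and between libraries, so levels may be set side by side between genes. Its low values step in units of about 1 read, which put the depth at about 17.6 M reads (M, mega) for V2a, 11.9 to 28.4 M for the WT libraries, 16.4 M for V1 and 16.7 M for V3. In a transcript of 2000 bases, 3 reads gave a signal of 1.64 in V2a and of 0.995 to 2.68 in the WT libraries. Correlations were taken on log2(signal + 1) over all 23523 gene entries, including those too low to be tested. The V2a library correlated with the WT libraries at r = 0.962 to 0.976, with V1 at 0.977 and with V3 at 0.981, while the lowest r between WT libraries was 0.983. No pair of libraries exceeded 0.993. Precursor ribosomal RNA (Rn45s) stood at a signal of 2160 in V2a and of 644 to 27943 in WT, which shows how far the WT libraries differed in this RNA. WT replicate 1 had the highest V2a marker levels and the highest summed blood, microglia and endothelium marker levels of the 6 motoneuron libraries. Counts of calls that move by over 1.5 times without it are given in both forms below.

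Of the genes tested, 799 (4.9%) were called higher and 1641 (10.1%) lower in V2a at an adjusted p under 0.05 (limma). In V2a 532 genes (3.26%) lay above every motoneuron library by at least 1 log2 unit, and 1003 (6.15%) lay below every one by as much. Of those, 365 and 943 were also called. Without WT replicate 1, 929 genes were called higher and 761 lay above the range by that distance. With 1 V2a library the test assumes that V2a libraries would vary as the 6 WT libraries do, and an exact permutation of 1 against 6 cannot go below p = 0.286 (two-sided). The median log2 difference over all tested genes was 0.04.

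The sorted populations matched their labels. Shox2, a homeodomain factor of V2a subsets, had a signal of 3975 in V2a, against a lowest of 1.03, a median of 3.09 and a highest of 30.6 in WT motoneurons. Sox14, a factor of V2a cells, had 2190 in V2a, against 0.675, 1.62 and 17.3 in WT. For both genes the highest WT value was that of replicate 1, at 0.771% and 0.788% of the V2a level, and the next WT library stood at 0.1% and 0.219%. Mnx1, the gene of the motoneuron sorting reporter, had 7.46 in V2a, against 2808, 2194, 3367, 3296, 3995 and 3140 in WT replicates 1 to 6. Its log2 difference was −8.51 (SE 0.26, adjusted p = 7.3e-07). Isl1 had 34.4 in V2a, against a lowest of 1593, a median of 1846 and a highest of 2323 in WT, and Isl2 had 7.63 in V2a, against 460, 662 and 741 in WT. The V2a library therefore held 0.238% of the mean WT level of Mnx1, 1.81% of that of Isl1 and 1.23% of that of Isl2. In bulk samples fewer cells of a type and less RNA per cell cannot be told apart.

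Lhx3 itself was present in both populations and higher in V2a. Its signal was 3293 in V2a, against 751, 682, 813, 923, 503 and 827 in WT replicates 1 to 6. The V2a value lay above every motoneuron library, 4.39-fold over their mean (log2 difference 2.16, SE 0.27, adjusted p = 8.1e-04). Lhx4 followed with 2340 in V2a, against 589, 617, 596, 673, 415 and 581 in WT (log2 difference 2.03, SE 0.23, adjusted p = 4.0e-04). Within a library, Lhx4 was 0.711 times Lhx3 in V2a and 0.702 to 0.905 times Lhx3 in the WT libraries, so the pair kept nearly the same proportion in both cell types. Isl1 was 0.0104 times Lhx3 in V2a and 1.85 to 3.41 times Lhx3 in the WT libraries. Across the motoneuron libraries Lhx3 stood at 15.3% to 28.0% of the V2a level, well above the 0.0258% to 0.771% of Shox2.

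**Figure D1:**
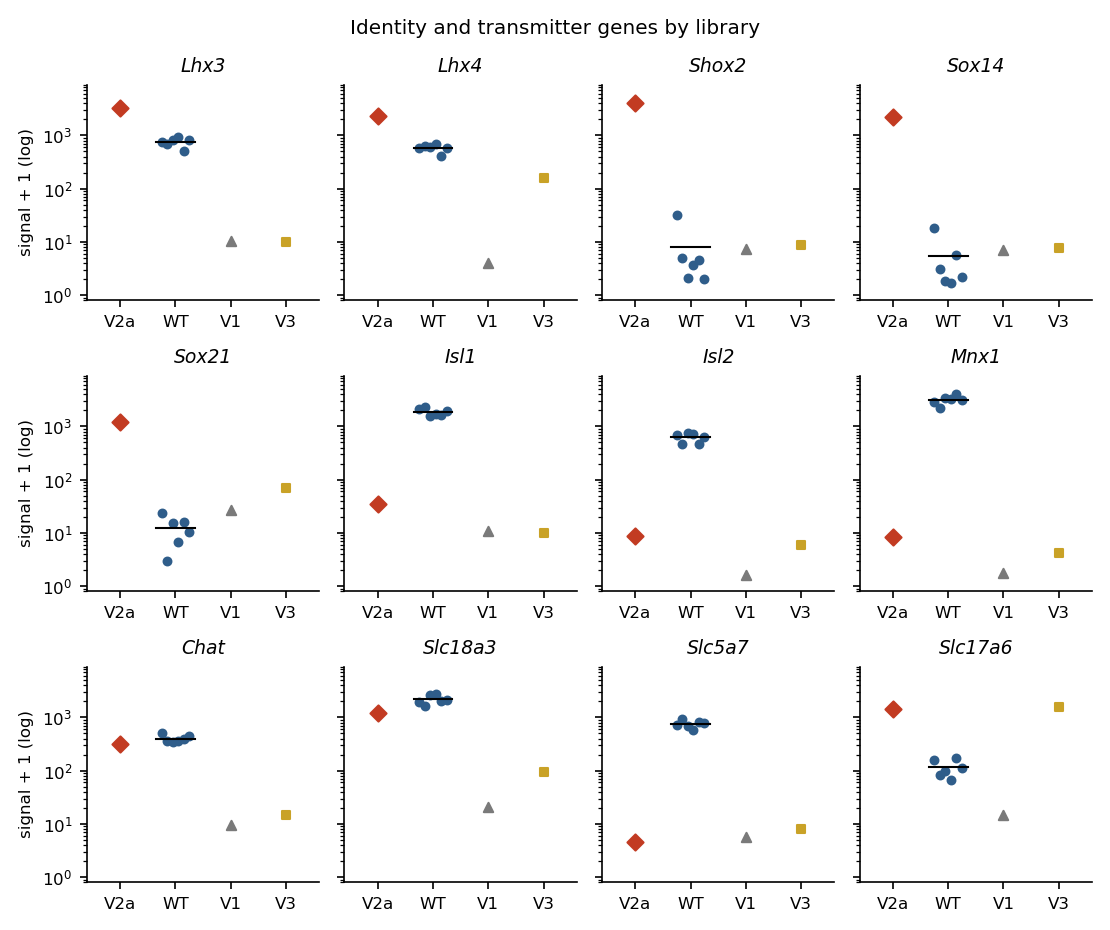
Signal + 1 (log axis) of 12 identity and transmitter genes in the V2a library (diamond), the 6 WT motoneuron libraries (circles, line at their mean) and the V1 (triangle) and V3 (square) libraries. Lhx3 and Lhx4 stand high in V2a and in WT, Shox2, Sox14 and Sox21 far higher in V2a than in the other libraries drawn, and Isl1, Isl2, Mnx1 and Slc5a7 far higher in WT than in V2a.

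The 23 shared high genes were chosen by their levels in V2a, WT, V1 and V3, so these levels describe them and support nothing further. Of 8017 genes with at least 100 in V2a and in the motoneuron mean, these were the ones under 50% of the smaller value in both V1 and V3. Ordered by how far they stood above V1 and V3, the list began with Lhx3, Chat, Slc18a3, Nkx6-2, Irx3, Igfbp5, 4933436C20Rik (the long noncoding RNA Crnde in the RefSeq table), Prkch, Irx5, Lrrn2, Lhx4, C1ql3, Ntng1, Nr2f2 and Fam163a. Hpca, Mlf1, Vat1l, Ndufs5, Skap2, Slc7a14, Ppp2r2b and Ecel1 completed it. In 7 of the 23 genes V2a lay within the range of the motoneuron libraries, in 8 above every library and in 8 below every one. These are 30.4%, 34.8% and 34.8% of them, near the 41.4%, 30.3% and 28.4% over all genes tested.

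Sequence upstream of the starts of Lhx3, Lhx4, Chat and Slc18a3 is shown because these are the LIM factor pair and the neurotransmitter pair that V2a and motoneurons hold in common. The windows are the 250 bases before each annotated start on GRCm38.p6, from RefSeq, read 5′ to 3′ on the minus strand of the genome, and capitals mark ATTA, which is TAAT on the opposite strand, and, in Lhx3, the RE1 core. Lhx3 is shown at the more distal of its starts (chr2:26208250-26208499), Lhx4 at chr1:155742028-155742277, Chat at chr14:32465910-32466159 and Slc18a3 at chr14:32464851-32465100.
Lhx3: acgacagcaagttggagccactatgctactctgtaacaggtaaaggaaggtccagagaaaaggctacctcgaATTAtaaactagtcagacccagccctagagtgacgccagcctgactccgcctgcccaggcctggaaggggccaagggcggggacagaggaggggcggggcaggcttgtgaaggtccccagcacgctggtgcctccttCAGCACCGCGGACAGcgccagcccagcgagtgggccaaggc
Lhx4: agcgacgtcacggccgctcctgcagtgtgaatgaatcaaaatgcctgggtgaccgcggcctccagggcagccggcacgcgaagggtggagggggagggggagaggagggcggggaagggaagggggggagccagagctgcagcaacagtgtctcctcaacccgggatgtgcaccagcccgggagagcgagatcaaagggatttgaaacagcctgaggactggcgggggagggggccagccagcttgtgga
Chat: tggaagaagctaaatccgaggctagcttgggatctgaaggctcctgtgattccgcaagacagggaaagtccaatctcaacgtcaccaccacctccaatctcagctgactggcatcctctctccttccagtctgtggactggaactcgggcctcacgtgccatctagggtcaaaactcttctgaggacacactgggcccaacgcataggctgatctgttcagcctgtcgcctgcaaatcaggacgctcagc
Slc18a3: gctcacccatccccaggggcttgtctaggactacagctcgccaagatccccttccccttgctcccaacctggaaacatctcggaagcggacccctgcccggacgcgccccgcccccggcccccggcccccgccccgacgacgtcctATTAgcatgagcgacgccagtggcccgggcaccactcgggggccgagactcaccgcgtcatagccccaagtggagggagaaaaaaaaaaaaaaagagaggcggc

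TAAT is the core that homeodomain proteins commonly bind, and TAATTA is the core motif reported for LIM homeodomain factors. RE1 is the element bound by the repressor REST, searched as CAGCACC, any 2 bases, then GGACAG, and it was added after the Lhx3 sequence had been seen. All were searched on both strands from 250 bases before to 50 bases after each start, and every TAATTA also counts as a TAAT. The table held 23 windows for 20 of the 23 shared genes. TAAT was found in 11 of these 23 windows (47.8%), against 45.2% of windows of genes called higher in V2a, 41.9% of those called lower and 43.8% of those of all genes tested. TAATTA was found in none of the 23 windows, and in 2.92% of the windows of all genes tested. The RE1 core stood in the Lhx3 window printed above and in 12 of 32851 windows of the whole table (0.0365%). It lay in windows of 9 tested genes, of which 1 was called higher in V2a (Lhx3) and 1 lower (Fam163b). Over all genes tested 4.9% were called higher and 10.1% lower. Fam163b, named here after its value was seen, had a signal of 31.3 in V2a and of 63.7 ± 7.72 in WT (SD, n = 6; log2 difference −0.99, SE 0.25, adjusted p = 0.027).

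Several shared genes are neighbours in the genome. Slc18a3 lies inside Chat on chromosome 14, an arrangement known as the cholinergic locus. Irx3, Crnde and Irx5 lie on chromosome 8, with 7 genes, 0 of them protein coding, between Irx3 and Crnde and 0 between Crnde and Irx5. Lhx4 and Fam163a lie on chromosome 1 with 9 genes, 4 of them protein coding, between them. Slc18a3 overlaps Chat, the library kit does not mark the strand, and how reads shared by overlapping genes were counted is not given in the sources used here, so these levels are uncertain by an unknown amount.

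Among the transcription factors of the shared list, Nkx6-2, a repressor of the ventral progenitor domains, had 1838 in V2a, against 121, 79.6, 104, 148, 89.8 and 83.4 in WT replicates 1 to 6. V2a lay above every WT library, and V1 and V3 had 11.9 and 9.28. Irx3 had 255 in V2a, against 284, 175, 209, 222, 129 and 178 in WT, within the WT range (log2 difference 0.39, SE 0.34, adjusted p = 0.459). Irx5 had 164 in V2a, against 354, 247, 320, 323, 145 and 225 in WT, also within the range (log2 difference −0.65, SE 0.40, adjusted p = 0.309). Both are Iroquois factors that help to set the boundary between ventral progenitor domains. Their neighbour 4933436C20Rik had 199 in V2a, against 136 to 242 in WT. Nr2f2 (COUP-TFII), a nuclear receptor of many neuron classes, had 366 in V2a, against 1682, 2410, 1828, 1943, 1375 and 1356 in WT (log2 difference −2.24, SE 0.28, adjusted p = 7.5e-04). It was the factor of the list that stood farthest below the motoneuron range.

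The other shared genes serve signalling, adhesion and metabolism. Igfbp5, a secreted binding protein of insulin-like growth factors, had 3365 in V2a, against 2144, 2233, 2870, 2194, 1936 and 2856 in WT. V2a stood above the highest motoneuron library, yet the difference was not called (0.52, SE 0.22, adjusted p = 0.159). Prkch, a protein kinase C, had 284 in V2a, against 202, 283, 260, 291, 175 and 207 in WT, and Lrrn2, a leucine-rich repeat membrane protein, had 619 in V2a, against 509, 526, 790, 671, 327 and 424 in WT. Both V2a values lay within the WT range. Ntng1 (netrin-G1), a membrane-anchored adhesion protein, had 488 in V2a, against 223, 281, 241, 288, 303 and 214 in WT (log2 difference 0.93, SE 0.21, adjusted p = 0.0188). C1ql3, a secreted synaptic protein, had 136 in V2a, below the 151 to 255 of WT but not called (adjusted p = 0.199). Fam163a had 404 in V2a, against 122 to 183 in WT (log2 difference 1.47, SE 0.24, adjusted p = 0.00339), and Mlf1 had 300 in V2a, against 69.8 to 142 in WT (log2 difference 1.51, SE 0.34, adjusted p = 0.0179).

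Ecel1, a membrane endopeptidase that motor axons need to reach muscle, had 962 in V2a, against 5055, 4121, 6336, 6044, 4674 and 5402 in WT (log2 difference −2.44, SE 0.23, adjusted p = 1.6e-04). It passed the rule with little to spare, since V3 had 467. Vat1l had 505 in V2a, against 1318 to 1856 in WT (log2 difference −1.70, SE 0.19, adjusted p = 4.0e-04). Hpca, the neuronal calcium sensor hippocalcin, had 918 in V2a, against 991 to 1296 in WT, and was not called (adjusted p = 0.235). Skap2 had 307 in V2a and 248 to 374 in WT, Slc7a14 183 in V2a and 141 to 178 in WT, Ppp2r2b 1070 in V2a and 1368 to 1967 in WT, and Ndufs5, a subunit of respiratory complex I, 399 in V2a and 237 to 724 in WT. None of these differences was called. In all, 6 of the 23 were called higher (Lhx3, Nkx6-2, Lhx4, Ntng1, Fam163a and Mlf1), 4 lower (Slc18a3, Nr2f2, Vat1l and Ecel1) and 13 neither, a count that the rule itself shapes.

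The 5 genes just inside the threshold, Ndufs5, Skap2, Slc7a14, Ppp2r2b and Ecel1, had their larger V1 or V3 level at 0.461 to 0.485 of the smaller V2a or motoneuron value. Genes just outside it were Nptx1 (0.520), Cplx2 (0.523), Stra6 (0.531), DQ267102 (0.544) and Adam19 (0.548). Prkch, Chat and Lhx3 met the rule in each of the 15 alternative settings tried. In the motoneuron group, replicate 5 was the lowest library for 8 of the 23 shared genes (Lhx3, Irx3, Igfbp5, Prkch, Irx5, Lrrn2, Lhx4 and Fam163a). That is 34.8% of them. Replicate 5 was the lowest library for 9.17% of all tested genes. Those include genes of low signal, where depth and ties at 0 affect which library is lowest, so the shares cover unlike sets.

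**Figure D2:**
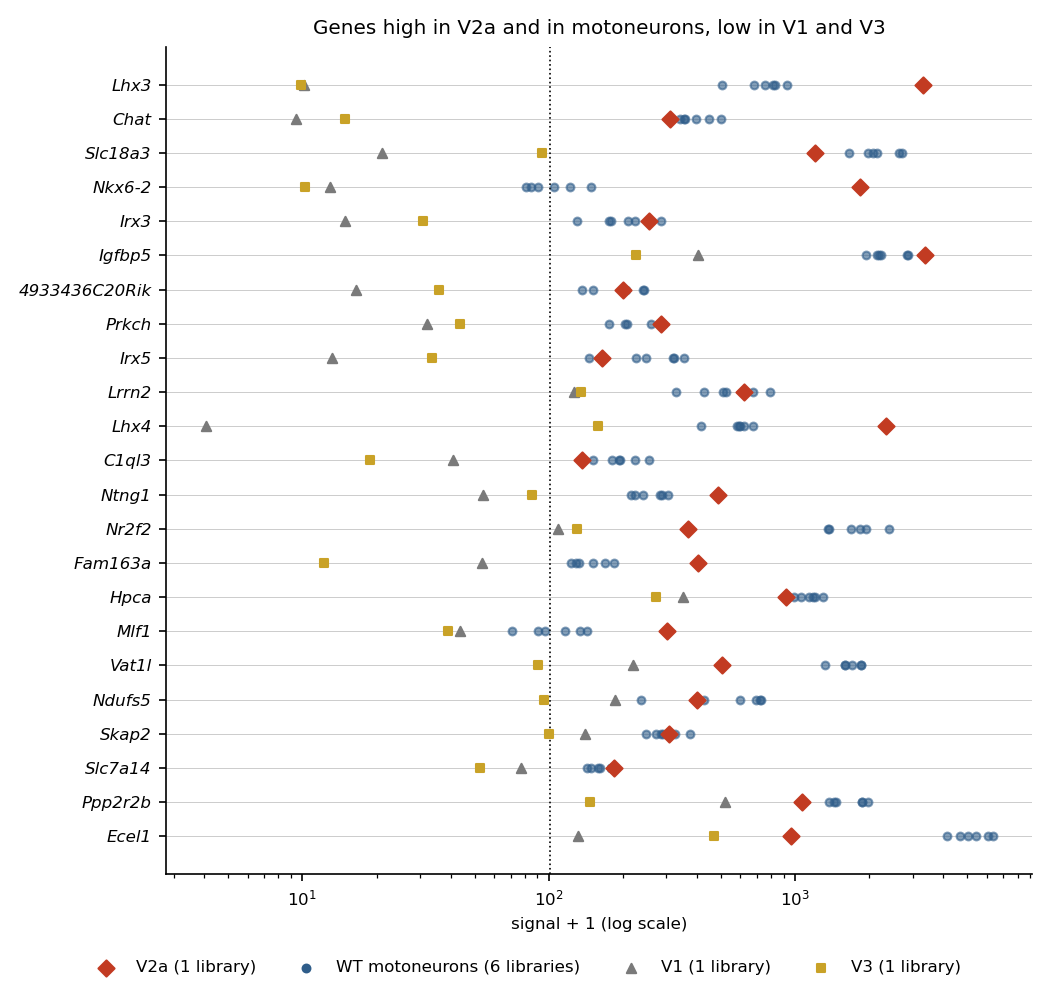
Signal + 1 (log axis) of the 23 shared high genes, 1 row each, in the V2a library (diamond), the 6 WT motoneuron libraries (circles) and the V1 (triangle) and V3 (square) libraries; the dotted line marks a signal of 100. V2a lies among or near the motoneuron libraries for most rows, and farthest above them for Nkx6-2 and farthest below them for Ecel1 and Nr2f2.

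The stem cell-derived progenitors, which the rule did not use, differed in which of these genes they held. Of the 23, 7 (30.4%) had at least 100 in the mES motoneuron progenitors and 6 (26.1%) in the mES neural progenitors, against 82.2% in each for the 8017 genes of at least 100 in V2a and in the motoneuron mean. In both progenitors 11 of the 23 (47.8%) were below 10% of the smaller V2a or motoneuron value, against 6.99% of the 8017. The rule had already kept only genes low in V1 and V3. Nkx6-2 had 940 in the motoneuron progenitors and 137 in the neural progenitors, and Skap2 had 923 and 983. Lhx3 had 113 and 21.9, Lhx4 49.3 and 13.5, Chat 4.88 and 4.87, and Slc18a3 36.8 and 16.7, in the same order. Nkx6-2 and Skap2 were thus among the shared genes that the progenitors already held at a high level, while the cholinergic genes were low in them. No test was made with 1 library of each kind.

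The transmitter genes gave a mixed picture. Chat, the enzyme that makes acetylcholine, had 309 in V2a, against 500, 355, 339, 352, 394 and 448 in WT. V2a lay just under the lowest motoneuron library, and the difference was not called (log2 difference −0.35, SE 0.22, adjusted p = 0.312). Slc18a3, the vesicular acetylcholine transporter, had 1202 in V2a, against 1970, 1658, 2628, 2720, 2068 and 2142 in WT (log2 difference −0.85, SE 0.25, adjusted p = 0.0477). This call was lost without WT replicate 1, 3, 4, 5 or 6 (adjusted p = 0.0552 to 0.0792) and remained without replicate 2 (0.0179). The V2a library thus held 77.6% of the mean WT level of Chat and 54.7% of that of Slc18a3, while V1 held 2.12% and 0.915% and V3 held 3.5% and 4.23%. Chat was 0.257 times Slc18a3 in V2a and 0.129 to 0.254 times Slc18a3 in WT.

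Slc5a7, the transporter that takes choline back into cholinergic terminals, had 3.56 in V2a, against 704, 943, 679, 589, 802 and 794 in WT. It was 211-fold lower in V2a than the WT mean (log2 difference −7.35, SE 0.23, adjusted p = 7.3e-07), at 0.474% of the WT mean. Slc5a7 was 0.00296 times Slc18a3 in V2a and 0.216 to 0.569 times Slc18a3 in WT, so the cholinergic genes did not move together. Ache, the enzyme that breaks acetylcholine down, had 117 in V2a, against 718, 905 and 1083 (lowest, median and highest) in WT (log2 difference −2.92, SE 0.20, adjusted p = 3.3e-05). Bche had 2.45 in V2a and 2.52 ± 1.26 in WT (SD, n = 6). Of these 5 cholinergic genes 3 fell and none rose, with a median log2 difference of −0.85.

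Slc17a6 (vesicular glutamate transporter 2), which loads glutamate into vesicles, had 1427 in V2a, against 65.8, 106 and 174 (lowest, median and highest) in WT. Its log2 difference was 3.70 (SE 0.46, adjusted p = 7.4e-04), and V1 and V3 had 13.6 and 1581. Slc17a6 was 1.19 times Slc18a3 in V2a and 0.0242 to 0.0841 times Slc18a3 in WT. Slc1a2, a glutamate uptake transporter, rose to 660 in V2a, against 136 ± 29.0 in WT (SD, n = 6; log2 difference 2.29, SE 0.28, adjusted p = 7.3e-04), whereas the neuronal uptake transporter Slc1a1 fell to 96.7 in V2a, against 226 ± 21.1 in WT (log2 difference −1.21, SE 0.18, adjusted p = 0.002). Of 7 glutamatergic genes tested 2 rose and 1 fell (median 0.75). Gad1, which makes the inhibitory transmitter GABA, had 33.6 in V2a, 10.4 to 73.4 in WT and 2058 in V1.

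Genes farthest above the motoneuron range were mainly V2a factors and globins. Among the 15 called genes with the largest positive difference and a signal of at least 100 in V2a were Shox2, Sox14, Hbb-bt, Hbb-b2, Sox21, Hba-a1, Nr5a2, Hba-x, Hbb-bh1, Calb2, Hba-a2, Nkx6-3, Nrn1 and Pcp4. Sox21, a Sox factor of progenitors and V2 cells, had 1182 in V2a, against 1.95, 11.9 and 22.8 (lowest, median and highest) in WT. Nkx6-3, a relative of Nkx6-2, had 102 in V2a, against 0.951, 1.42 and 5.61 in WT. Nr5a2, a nuclear receptor, had 244 in V2a, against 0.291, 2.04 and 9.08 in WT, and 147 in V1. Calb2 (calretinin), a calcium-binding protein of interneurons, had 613 in V2a, against 0, 12.6 and 19.4 in WT, and 130 in V1. Nrn1 (neuritin), which promotes neurite growth, had 2278 in V2a, against 30.9, 64.0 and 121 in WT, and 1677 in V3. Pcp4, a calmodulin-binding peptide, had 1164 in V2a, against 22.2, 49.2 and 85.1 in WT, and 375 in V1. The V2a value stood above every WT library for each of these genes.

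The globins Hbb-bt, Hbb-b2, Hba-a1, Hba-x, Hbb-bh1 and Hba-a2 belong to red blood cells. Hbb-bt and Hbb-b2 had identical values, 284 in V2a and 0 to 10.5 in WT, as near-identical copies can, and Hba-a1 and Hba-a2 are each listed under more than 1 entry, so the single genes are uncertain. Hba-x had 2272 in V2a, against 2.73, 29.1 and 201 (lowest, median and highest) in WT. The 8 blood markers summed to 13414 in V2a, against 8.47 to 1579 in WT, 219 in V1 and 1084 in V3, and WT replicate 1 was the highest motoneuron library by far, the next one reaching 236. Of 6 blood markers tested 3 were called higher (Hbb-bt, Hba-x and Alas2). This list holds the other entry of Hba-a1 and of Hba-a2, which were not called (adjusted p = 0.0773 and 0.0696), whereas the entries named above were (0.0211 and 0.0148). Without WT replicate 1 all 6 were called, and 2 were called with WT replicates 1, 5 and 6 alone. The part of these cells in other differences was not tested.

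The 15 called genes with the largest negative difference and a WT mean of at least 100 were Mnx1, Slc5a7, Barx2, A730046J19Rik, Akr1b3, Chodl, Prph, Aldh1a2, Isl2, Ntf3, S100a10, Irx6, Isl1, Mecom and Nos1. Barx2, a homeobox factor, had 0 in V2a, against 116, 134 and 250 (lowest, median and highest) in WT, at least 95.7-fold lower when V2a is set to 3 reads. Akr1b3, an aldose reductase, had 0 in V2a, against 68.6, 142 and 163 in WT, at least 54.5-fold lower by the same floor. Chodl, a membrane lectin of motoneurons, had 5.58 in V2a, against 571, 667 and 917 in WT (125-fold). Ntf3, the neurotrophin NT-3, had 7.09 in V2a, against 347, 583 and 722 in WT (79.5-fold). S100a10, an annexin partner, had 66.8 in V2a, against 3234, 4203 and 5185 in WT, and 1949 in V3. Irx6, another Iroquois gene, had 1.37 in V2a, against 97.7, 130 and 168 in WT, whereas its relatives Irx3 and Irx5 lay within the WT range. Nos1, which makes nitric oxide, had 2.72 in V2a, against 137, 177 and 262 in WT, and 63.5 in V1. Mecom, a zinc finger factor of motor columns, is listed under more than 1 entry, of which the one named had 5.64 in V2a and 246 to 484 in WT.

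**Figure D3:**
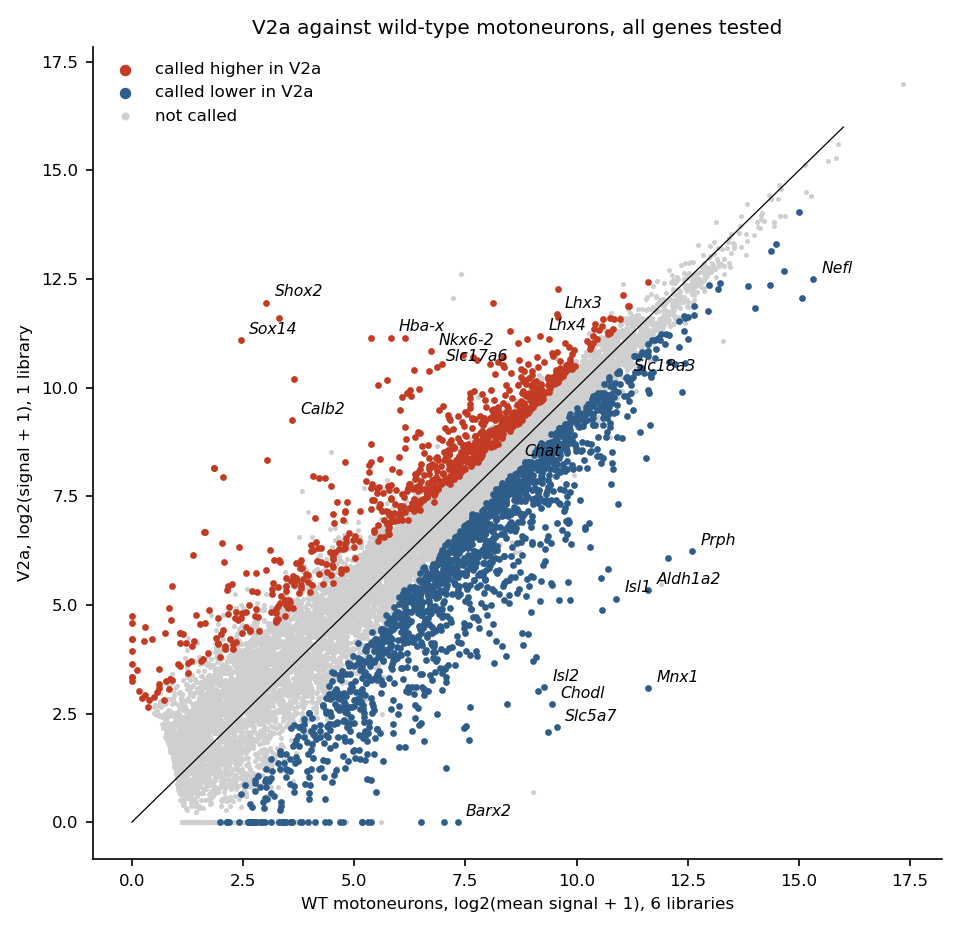
log2(signal + 1) in the V2a library (vertical axis) against log2(mean signal + 1) of the 6 WT motoneuron libraries (horizontal axis) for the 16319 genes tested, with genes called higher (799) and lower (1641) in V2a coloured and some genes of the text named. Lhx3 and Lhx4 lie above the diagonal and Chat and Slc18a3 a little below it, while Shox2 and Sox14 stand at the upper left and Mnx1, Slc5a7 and Isl1 at the lower right.

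Motoneuron identity factors differed in both directions. Of 16 tested, 8 fell (Mnx1, Isl1, Isl2, Foxp1, Etv4, Etv1, Runx1 and Mecom) and 3 rose (Lhx3, Lhx4 and Esrrb), with a median of −1.50. Foxp1, which sets the lateral and preganglionic columns, had 106 in V2a and 1176 ± 238 in WT (SD, n = 6; log2 difference −3.44, SE 0.28, adjusted p = 7.1e-05). Etv4 (Pea3), a motor pool factor, had 12.1 in V2a and 522 ± 137 in WT (log2 difference −5.29, SE 0.30, adjusted p = 1.1e-05). Esrrb, an orphan nuclear receptor, had 209 in V2a and 46.3 ± 6.28 in WT (log2 difference 2.16, SE 0.27, adjusted p = 7.1e-04), and V1 had 407. Esrrg, Ebf2, Lhx1, Nkx6-1 and Pou3f1 were not called.

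Of 12 V2 lineage factors tested, 7 rose in V2a (among them Lhx3, Lhx4, Shox2, Sox14, Sox21 and Bhlhe22) and none fell, with a median of 3.25. A cre driver of this lineage chose the cells. Without WT replicate 1 the number was 11, with Gata2, Tal1, Vsx1 and Gata3 added. These last are factors of the sister V2b lineage, apart from Vsx1, which marks V2 precursors. Gata2 had 29.5 in V2a, against 0.430, 1.91 and 13.2 (lowest, median and highest) in WT (adjusted p = 0.10), and Gata3 had 40.2 in V2a, against 0.986, 2.25 and 20.1 in WT (adjusted p = 0.072). Bhlhe22, a repressor of several interneuron classes, had 995 in V2a, 86.4 ± 18 in WT and 1108 in V1. Lmo4, which competes with LIM factors for Ldb1, had 958 in V2a and 1059 ± 159 in WT and was not called.

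Of the partners of LIM complexes, 6 of 10 were not called. Ldb1, the adaptor that joins LIM factors, had 2207 in V2a, against 1238 to 1855 in WT, above every WT library but not called (log2 difference 0.53, SE 0.19, adjusted p = 0.11). Its relative Ldb2 fell to 83.4 in V2a, against 396, 505 and 642 (lowest, median and highest) in WT (log2 difference −2.58, SE 0.29, adjusted p = 4.4e-04). Lmo1, a LIM-only protein, fell to 41.6 in V2a, against 217, 240 and 295 in WT, and Ssbp2, which stabilises Ldb proteins, to 107 in V2a, against 208 ± 14.6 in WT (SD, n = 6). Lmo2 rose to 280 in V2a, against 71.1, 87.5 and 150 in WT (log2 difference 1.53, SE 0.43, adjusted p = 0.043). That call was lost without WT replicate 2, 3, 4 or 6 (adjusted p = 0.0575 to 0.0658). Of the 10 partners 1 rose and 3 fell, with a median of 0.32.

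Receptors for trophic factors, which keep motoneurons alive and guide their axons, were lower in V2a for 6 of 13 genes tested and higher for 2, with a median of −0.71. Ret, the signalling receptor for GDNF, had 117 in V2a, against 980, 1265 and 1418 (lowest, median and highest) in WT (log2 difference −3.39, SE 0.19, adjusted p = 9.9e-06). Its coreceptor Gfra1 had 280 in V2a, against 768, 989 and 1097 in WT (log2 difference −1.78, SE 0.20, adjusted p = 4.0e-04), while the related Gfra2 had 415 in V2a, against 188 ± 38.2 in WT (SD, n = 6; log2 difference 1.16, SE 0.28, adjusted p = 0.0226). The receptors of ciliary neurotrophic factor and its relatives fell together. Lifr had 47.7 in V2a and 246 ± 43.9 in WT, Il6st 181 in V2a and 885 ± 142 in WT, and Cntfr 911 in V2a and 1755 ± 297 in WT. Ngfr, the p75 neurotrophin receptor, had 1968 in V2a and 5041 ± 939 in WT. Ntrk2, the receptor of BDNF, rose to 581 in V2a, against 336 ± 38.4 in WT.

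Guidance genes differed member by member. In the Slit, Robo and netrin list, 2 of 13 rose and 5 fell (median 0.22). Slit2 had 279 in V2a, against 1344, 1757 and 2219 (lowest, median and highest) in WT, and Slit3 had 59.8 in V2a, against 571, 590 and 694 in WT, whereas Slit1 had 907 in V2a and 535 ± 77.7 in WT (SD, n = 6). Slits are secreted repellents, and the Slit1 call (log2 difference 0.77, SE 0.21, adjusted p = 0.039) was lost without WT replicate 1, 3, 4 or 6. Unc5c, a netrin receptor for repulsion, had 15.9 in V2a, against 340, 430 and 615 in WT (log2 difference −4.70, SE 0.26, adjusted p = 9.9e-06), and Dcc, the netrin receptor for attraction, had 1042 in V2a and 524 ± 71.9 in WT (adjusted p = 0.011). Of 17 Eph and ephrin genes, 3 rose (Ephb1, Ephb3 and Efnb2) and 2 fell (Epha3 and Epha4), with a median of 0.22. Over all genes tested 4.9% were called higher and 10.1% lower, so 2 of 17 lower is near the general share. Epha4, which steers limb motor axons, had 317 in V2a, against 666, 893 and 996 in WT, and Ephb1 had 801 in V2a, against 267, 323 and 377 in WT.

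Of 19 semaphorin, plexin and neuropilin genes, 3 rose and 7 fell (median −0.13). Nrp1, a semaphorin coreceptor, had 48.3 in V2a, against 1230, 1462 and 1882 (lowest, median and highest) in WT (log2 difference −4.92, SE 0.21, adjusted p = 3.2e-06), while Nrp2 had 2269 in V2a and 2504 ± 285 in WT (SD, n = 6) and was not called. Sema3c had 219 in V2a, against 1190, 1631 and 2664 in WT. Plxna2 rose to 628 in V2a, against 199 ± 33.3 in WT. In the list of chemokine and axon exit genes, 2 of 10 rose and 3 fell (median 0.17), against 4.9% and 10.1% of all genes tested. Cxcr4, a chemokine receptor, had 140 in V2a, against 12.7, 26.4 and 44.4 in WT, and the adhesion protein Chl1 had 1482 in V2a, against 158, 259 and 386 in WT. Alcam, an adhesion protein of motor axons, had 44.7 in V2a, against 485, 665 and 922 in WT (log2 difference −3.88, SE 0.27, adjusted p = 3.4e-05), and Cntn2 (TAG-1) had 159 in V2a, against 434, 516 and 629 in WT.

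Type II cadherins, which sort motoneurons into pools, were lower in V2a for 7 of 11 genes and higher for none (median −1.94). Cdh6 had 104 in V2a, against 664, 807 and 978 (lowest, median and highest) in WT, Cdh7 18.5 in V2a, against 118, 140 and 244 in WT, Cdh8 66.9 in V2a, against 249, 273 and 357 in WT, and Cdh9 13.5 in V2a, against 136, 173 and 290 in WT. All these V2a values lay below the lowest motoneuron library. Cdh10, Cdh20 and Cdh22 also fell, and Cdh11, Cdh12, Cdh18 and Cdh24 were not called. The 7 calls held when any WT library was left out.

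Retinoid genes were led by Aldh1a2, the enzyme with which brachial and lumbar motoneurons make retinoic acid. It had 39.3 in V2a, against 1958, 4373, 3197, 4067, 2645 and 2562 in WT (log2 difference −6.23, SE 0.37, adjusted p = 1.3e-05). Rxrg, a retinoid receptor, had 11.7 in V2a, against 221, 295 and 330 (lowest, median and highest) in WT, and Rara rose to 712 in V2a, against 200.2, 275 and 330 in WT. Of 13 genes tested 1 rose and 4 fell (median −0.56). Among those 4, Rarg lost its call without WT replicate 4, 5 or 6 and Stra6, which takes up retinol, without WT replicate 1, 3, 4, 5 or 6.

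Intermediate filaments and neuromuscular signals gave some of the largest differences. Prph (peripherin), a filament of neurons with peripheral axons, had 74.1 in V2a, against 4826, 5757, 7332, 7874, 6271 and 5297 in WT (log2 difference −6.35, SE 0.25, adjusted p = 2.4e-06). The neurofilaments were lower but abundant. Nefl had 5756 in V2a and 40826 ± 8177 in WT (SD, n = 6), Nefm 4293 in V2a and 34120 ± 2453 in WT, and Nefh 62.6 in V2a and 272 ± 43.1 in WT. Ina (internexin) had 11712 in V2a and 16372 ± 3213 in WT and was not called. Of 7 filament genes 5 fell and none rose (median −2.09). Of 8 neuromuscular genes 5 fell and 1 rose (median −3.79). Nrg1, which signals to muscle and Schwann cells, had 109 in V2a and 1173 ± 224 in WT. Calca (CGRP) had 2.33 in V2a and 43.2 to 101 in WT. Uts2 and Calcb had 0 in V2a and means of 89.9 ± 26.2 and 40.8 ± 8.32 in WT, at least 14.8-fold and 12-fold lower when V2a is set to 3 reads. Agrn (agrin), which clusters acetylcholine receptors at the synapse, had 1808 in V2a and 2265 ± 602 in WT and was not called, and the peptide gene Adcyap1 rose to 342 in V2a, against 164 ± 33.5 in WT.

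Hox genes, which set position along the cord, were higher in V2a for 13 of 27 tested and lower for none, with a median of 1.30. Their summed signal was 25999 in V2a, against 10538 to 12644 in WT, and 25240 in V1 and 31837 in V3, so the 3 tdTomato-sorted interneuron libraries stood together above the motoneuron libraries. Among the 13 called Hox genes, Hoxb5, Hoxb4, Hoxb6, Hoxb9 and Hoxb8 had the largest differences. Hoxb5 had 1658 in V2a, against 112, 164 and 425 (lowest, median and highest) in WT, and 1550 in V1 and 919 in V3 (log2 difference 3.17, SE 0.55, adjusted p = 0.0047). Hoxb4 had 326 in V2a, against 26.6, 35.5 and 112 in WT, and Hoxb6 had 1587 in V2a, against 162, 185 and 366 in WT. Hoxb9, with 2511 in V2a and 362 ± 104 in WT (SD, n = 6), and Hoxb8, with 1663 in V2a and 325 ± 125 in WT, followed. Hoxc8 had 2092 in V2a and 2280 ± 628 in WT, and Hoxc10 had 1508 in V2a and 1410 ± 239 in WT. These Hoxc genes, which shape brachial and lumbar motor columns, were not called. Hoxd12 had 22.7 in V2a and 0 to 6.78 in WT, and was not called either (adjusted p = 0.12). The number called ranged from 11 to 14 when a WT library was left out. Reporter and sort differ with cell type here as well, and the levels along the cord from which each sample was cut are not given in the labels.

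**Figure D4:**
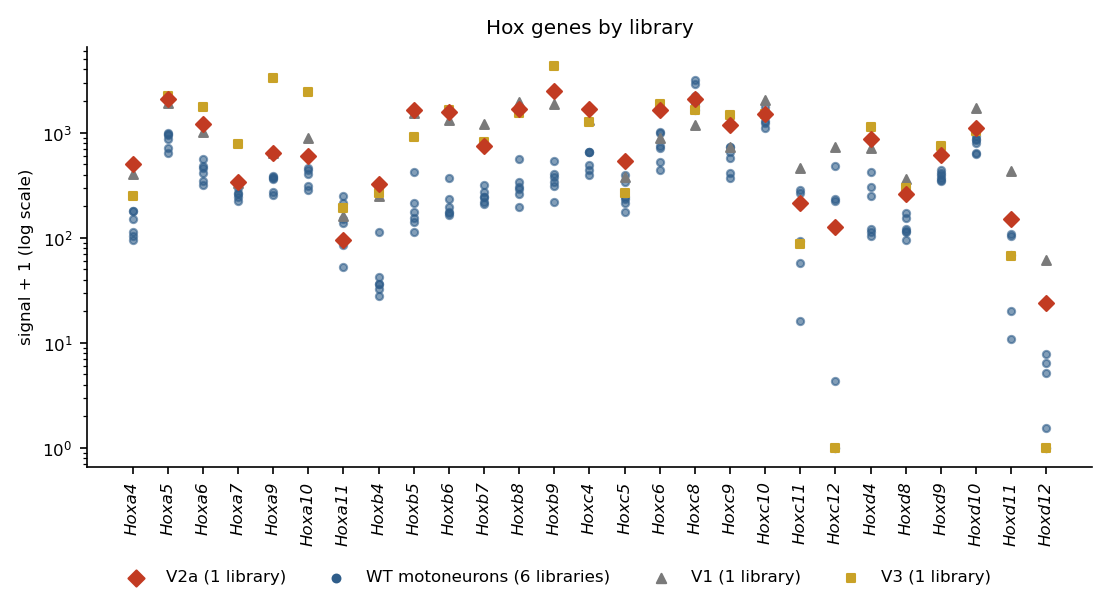
Signal + 1 (log axis) of the 27 Hox genes in the V2a library (diamonds), the 6 WT motoneuron libraries (circles) and the V1 (triangles) and V3 (squares) libraries. V2a lies above all WT circles for most Hoxa and Hoxb genes and among them for Hoxc8, Hoxc10 and Hoxc12.

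Receptors and channels of mature neurons were more often lower than higher, as were all genes tested (10.1% lower and 4.9% higher). Of 21 glutamate receptor genes 10 fell and none rose (median −1.05), and of 19 GABA, glycine and nicotinic receptor genes 10 fell and 1 rose (median −1.37). Grin2a, an NMDA receptor subunit, had 6.02 in V2a, against 31.3, 58.9 and 74.7 (lowest, median and highest) in WT, Grm7 10.7 in V2a, against 50.3, 69.4 and 84.5 in WT, and Grik3 68.4 in V2a, against 181, 252 and 331 in WT. Gabra2, a GABA receptor subunit, had 39.0 in V2a, against 203, 264 and 443 in WT. Glra1, a glycine receptor subunit, rose to 211 in V2a, against 52.9 ± 12.2 in WT (SD, n = 6), and Glra2 fell to 278 in V2a, against 883 ± 147 in WT. With WT replicates 2, 3 and 4 alone as the motoneuron group, 6 glutamate receptor genes and 7 of the GABA, glycine and nicotinic genes were lower.

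Of 24 potassium channel genes 11 fell and none rose (median −0.67). Kcnab1, an auxiliary subunit, had 13 in V2a, against 366, 574 and 677 (lowest, median and highest) in WT (log2 difference −5.26, SE 0.29, adjusted p = 9.9e-06), and Kcnip4, which modulates A-type channels, had 17.0 in V2a, against 220, 296 and 356 in WT. Kcna5 had 2.17 in V2a, near the level of 3 reads, against 26.6 to 36.3 in WT. With WT replicates 2, 3 and 4 alone 7 potassium channel genes were lower. Of 22 sodium, calcium and HCN channel genes 6 fell and 1 rose (median −0.40). Scn9a had 44.1 in V2a, against 279, 323 and 415 in WT (log2 difference −2.87, SE 0.21, adjusted p = 4.0e-05), and Scn3a, the sodium channel of immature neurons, rose to 925 in V2a, against 506 ± 76.1 in WT (SD, n = 6). With WT replicates 1, 5 and 6 alone 11 genes of this list were lower.

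Some progenitor and cell cycle genes rose in V2a, and most were not called. Of 17 progenitor genes 5 rose (among them Nkx6-2, Hes5, Neurog2 and Dll1) and none fell (median 2.09), and without WT replicate 1 the number was 11. Neurog2, a proneural factor, had 298 in V2a, against 26.2, 36.9 and 62.5 (lowest, median and highest) in WT, and Hes5, a Notch target, had 213 in V2a, against 6.64, 17.9 and 50.3 in WT. Sox2 had 157 in V2a and 47.3 ± 30.2 in WT (SD, n = 6) and was not called. Of 14 cell cycle genes 6 rose (Mki67, Top2a, Mcm3, Mcm5, Aurkb and Bub1) and none fell (median 2.09). Top2a had 163 in V2a, against 11.0, 24.2 and 41.1 in WT, and 413 in V3. The cell cycle genes summed to 1774 in V2a, against 906 to 1058 in WT, 786 in V1 and 3352 in V3. Olig2, which marks motoneuron progenitors, had 0.891 in V2a, under the level of 3 reads, and 2.29 to 7.86 in WT.

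Markers of other cells moved with the V2a library as well, and their part in the differences above was not tested. Endothelium markers summed to 158 in V2a, against 5.19 to 63.9 in WT. Of 7 tested, 2 rose (Cdh5 and Tek), with 0 called without WT replicate 5, 1 without replicate 2, 3 or 6, and 4 without replicate 1. Mesenchyme markers summed to 226 in V2a, against 8.44 to 200.2 in WT and 975 in V3, and 3 of 5 tested rose (Col1a2, Col3a1 and Pdgfra). Col1a2 had 62.9 in V2a, against 2.42, 2.83 and 5.65 (lowest, median and highest) in WT. Microglia markers summed to 30.2 in V2a, against 4.67 to 185 in WT, where replicate 1 held the 185 and the others at most 35.7. None of the 7 tested passed the threshold of the limma test in either direction, with 0 at an unadjusted p under 0.05, and their adjusted p-values lay between 0.64 and 0.99. Hbb-bs was at 0 in every library of both groups. Astrocyte markers Gfap and Aqp4 had 0.418 and 1.28 in V2a and were not tested for their low level.

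Markers of other neurons showed little of V1 or V3 cells in the V2a library, and dorsal markers differed in direction. Of 14 markers of other ventral interneurons none rose and 2 fell (median 0.82), and without WT replicate 1 Gata2, Gata3 and Tal1 were called higher. En1 had 7.23 in V2a and 2.73 to 40.8 in WT, against 851 in V1, and Sim1 had 3.25 in V2a and 0.241 to 4.13 in WT, against 808 in V3. Foxp2, a V1 factor that motoneurons also held, had 19.5 in V2a, against 157, 247 and 354 (lowest, median and highest) in WT (log2 difference −3.64, SE 0.36, adjusted p = 2.3e-04). Of 7 dorsal markers tested 0 were called higher and 1 lower, yet their median log2 difference was 1.09. The 9 listed dorsal markers summed to 141 in V2a, against 77.0 to 272 in WT. The gene called lower was Pou4f1, with 28.9 in V2a and 51.3 to 135 in WT, a call lost without WT replicate 1, 2, 3 or 5. The share called lower over all genes tested was 10.1%. Among 6 sensory neuron markers Pou4f1, Isl1 and Runx1 fell, of which Isl1 is also a motoneuron gene, and Prdm12 was called higher without WT replicate 1 and with WT replicates 2, 3 and 4 alone. Of 5 glia and neural crest markers 1 fell (Foxd3, which V1 neurons also express), with 43.0 in V2a, 193 ± 72.1 in WT (SD, n = 6) and 1929 in V1.

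Where a list had no member called in a direction, the number at an unadjusted p under 0.05 (limma) was 0 lower for the V2 lineage, Hox, progenitor, cell cycle, blood, endothelium and mesenchyme lists and 0 higher for the cholinergic and filament lists. It was 1 higher for the cadherins and the potassium channels, 2 higher for the glutamate receptors and 3 higher for other ventral interneuron markers.

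**Figure D5:**
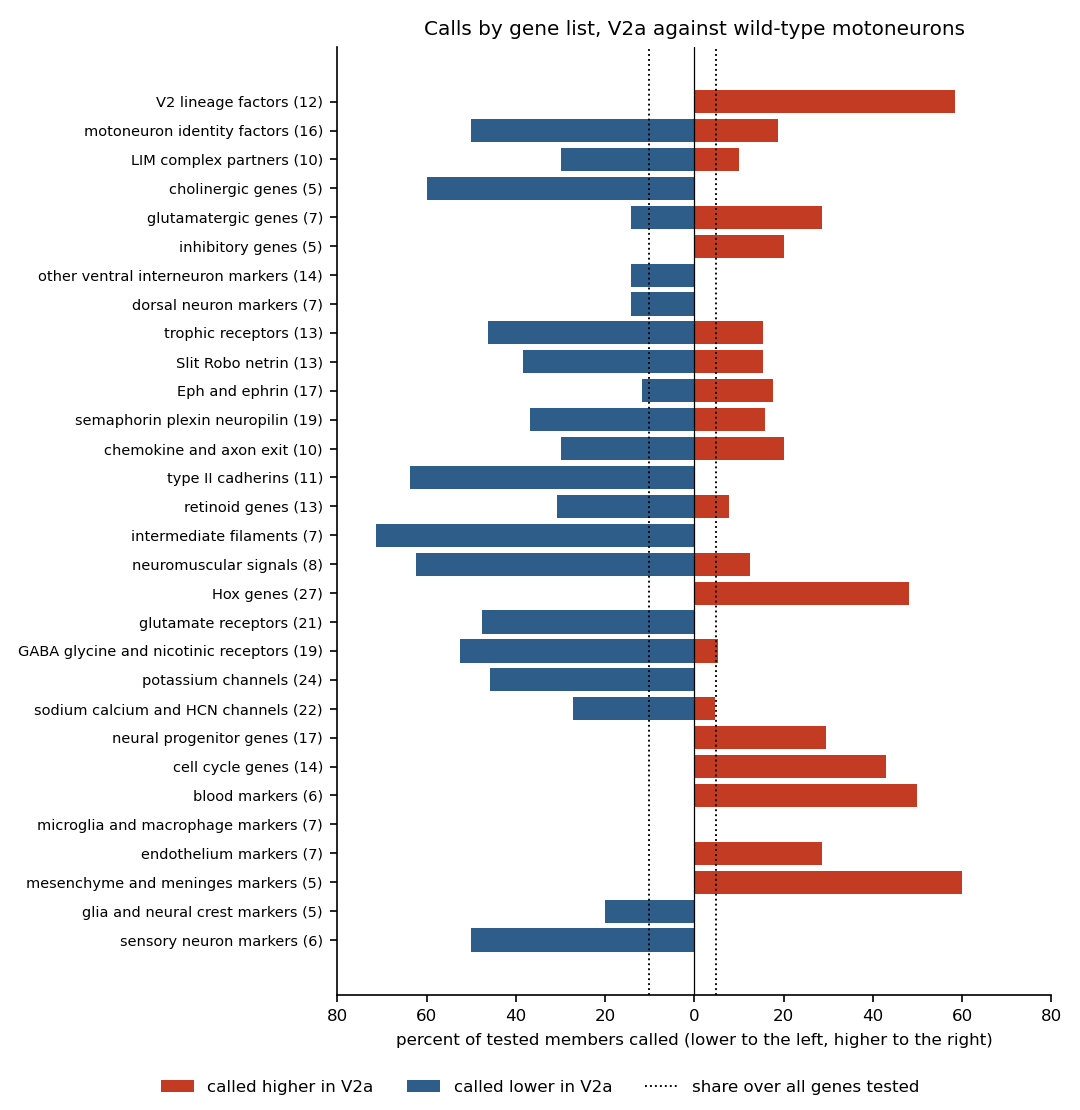
Percent of the tested members of each of 30 gene lists called higher (right) and lower (left) in V2a against the 6 WT motoneuron libraries; the number tested stands in brackets and the dotted lines mark the shares over all genes tested, 4.9% and 10.1%. Blood, V2 lineage, mesenchyme and Hox lists reach farthest to the right, and filament, cadherin, neuromuscular and cholinergic lists farthest to the left.

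The shared high genes were also read in the motoneurons that lack microRNA-218, which the rule did not use. This comparison has the same 6 WT libraries as reference as the V2a comparison, so both sets of values are given side by side and not correlated. The rule did use these WT libraries, choosing genes for a high WT mean. The counts and median of members below are therefore a description. The mature microRNA was not measured in these tables. Over all genes, 523 of 16260 tested (3.22%) were higher and 776 (4.77%) lower in DKO (limma, adjusted p under 0.05). Of the 23 shared genes 2 were higher and 4 lower, with a median log2 difference of −0.20, against 0.00 over all genes.

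Lhx3 had 470 and 388 in the DKO libraries, against 503 to 923 in WT (log2 difference −0.79, SE 0.20, adjusted p = 0.035), and Slc18a3 had 1410 and 1265 in DKO, against 1658 to 2720 in WT (log2 difference −0.70, adjusted p = 0.0347). Lrrn2 had 185 and 185 in DKO, against 541 ± 167 in WT (SD, n = 6; log2 difference −1.49, SE 0.27, adjusted p = 0.00971), and Skap2 had 178 and 166 in DKO, against 298 ± 44.9 in WT (log2 difference −0.78, adjusted p = 0.0138). C1ql3 had 341 and 321 in DKO, against 199 ± 36.1 in WT (log2 difference 0.75, adjusted p = 0.0279), and 4933436C20Rik had 474 and 315 in DKO, against 195 ± 44.5 in WT (log2 difference 1.01, adjusted p = 0.0281). In V2a the log2 differences of these genes from WT were 2.16 for Lhx3, −0.85 for Slc18a3, 0.25 for Lrrn2, 0.05 for Skap2, −0.53 for C1ql3 and 0.06 for 4933436C20Rik. Lhx4 had 841 and 840 in DKO, against 415 to 673 in WT, above every WT library but not called (adjusted p = 0.0557). None of the 6 calls remained when either DKO library was left out, that of Lhx3 was lost without WT replicate 3, 4 or 6 and that of Slc18a3 without WT replicate 3, 4, 5 or 6.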

How the data were processed

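Sorted cells gave poly(A) RNA for unstranded libraries, per the labels' protocols. The values the authors deposited are a signal for each gene and each transcript of RefSeq, per the file headers. DESeq, bedtools, mm10 and mm9 appear in the submitters' processing notes without version or role; aligner and read counter: not given in the sources used here. This signal is not a count. It steps in units of about 1 read after multiplication by transcript length (74.8% to 76.6% of low values within 0.1 of a whole multiple, against 20% by chance), so a library's depth is approximate, and floors of 3 reads cover counting error only.

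V2a (1 library) was compared with WT motoneurons (6 libraries), and DKO (2 libraries) with the same 6, on the scale of log2(signal + 1), using limma-trend (limma 3.58.1, R 4.3.3). A gene entered the test if its mean signal over the compared libraries reached 1. P-values are two-sided, adjusted by Benjamini-Hochberg over every gene tested, with a threshold of 0.05. As the signal is normalized, the form of the planned test meant for such values applied. A log2 difference on this scale understates the change of low genes, whereas a fold is the ratio of the V2a signal to the WT mean. The fit was tested on simulated data, in which all libraries were drawn with the spread of the WT libraries. That cannot test whether V2a libraries would vary as the WT libraries do. Genes named are the markers Lhx3, Mnx1 and Slc18a3, the 15 largest called differences in each direction outside the WT range with a signal of at least 100, the 15 shared genes with the largest ratio over V1 and V3, the up to 4 members of each of 30 lists with the largest difference, and members of short lists where roles are compared. Other names were chosen after their values were seen, and some genes that meet these rules are not reported here. The members and lists were chosen with earlier results of these data known. Starts and sequences came from RefSeq (GRCm38.p6), with 20 of the 23 shared genes matched, and tables were read with Python 3.11.15. Alternatives covered the pseudocount, filter, scaling, variance prior, transcript table and left-out libraries.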

Additional observations from a re-analysis of the deposited data

Results flagged for a closer look

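Among 153 named genes, 9 had a WT motoneuron library whose gap to the nearest of the other 5 divided by the group's whole range exceeded Dixon's 95% critical value, as chance gives in about 1 in 20. In 6 of these genes it was WT replicate 1 that stood high. Hba-a2 had 12.9 in that library and 0 in the other WT libraries (gap 1.0 of the range), against 102 in V2a, and Shox2 had 30.6 there and 1.03 to 3.97 in the others (0.673), against 3975 in V2a. Gata3 had 20.1 and 0.986 to 3.53 (0.652), against 40.2 in V2a, Nkx6-3 had 5.61 and 0.951 to 1.89 (0.678), against 102 in V2a, Hoxb4 had 112 and 26.6 to 41.1 (0.701), against 326 in V2a, and Col1a2 had 5.65 and 2.42 to 3.02 (0.755), against 62.9 in V2a. Each V2a value lay above WT replicate 1. Epha4 was low in WT replicate 1, at 666 with 886 to 996 in the others (0.71), against 317 in V2a. Gabrg1 was high in WT replicate 2, at 66.9 with 26.8 to 32.2 in the others (0.799), against 2.96 in V2a. Lhx4 was low in WT replicate 5, at 415 with 581 to 673 in the others (0.695), against 2340 in V2a. The V2a, V1 and V3 groups of 1 library and the DKO group of 2 are too small for this check.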

How the results depend on the processing

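The counts above and below the motoneuron range changed with the settings that define it: at any distance 4939 and 4628, at 2 log2 units 99 and 332, with a pseudocount of 10 282 and 655, above the range with a mean signal of at least 10 317, and with WT replicates 2, 3 and 4 alone 1441. Genes called lower numbered 1093 with WT replicates 2, 3 and 4 alone, of which 1004 were among the 1641. Leaving out each WT library gave 559 to 1017 genes higher, 1352 to 1877 lower, 554 to 761 above and 1024 to 1093 below the range, and 23 to 24 shared high genes. The shared list held 15 genes at a minimum of 200, 10 at under 25% of the smaller value in V1 and V3 and 9 at under 50 in both. Of its genes, 0 were higher and 2 lower in DKO without the variance trend, 1 and 1 with the replicate block, 5 were higher with WT replicates 1, 5 and 6 alone, 8 were lower against WT replicates 2, 3 and 4, and leaving out a library gave 0 to 3 higher and 0 to 5 lower.

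No paired analysis was possible because the V2a library has no replicate number. DKO and WT share numbers 1 and 2, and deviations of same-numbered libraries from their group means correlated at −0.0557 and −0.0101. With 2 DKO libraries their deviations mirror each other, so these are not separate checks. Whether same-numbered libraries shared a litter or batch cannot be told from them. These log2 differences turned negative, none of them called: C1qc at −0.0035 with a pseudocount of 10; 4933436C20Rik at −0.13 and Slc6a5 at −2.49 by the highest transcript; Lrrn2 at −0.077 and Skap2 at −0.021 with WT replicates 2, 3 and 4 alone; 4933436C20Rik at −0.18, Slc1a3 at −0.11, Fcer1g at −0.12, Csf1r at −0.52, C1qa at −0.21 and C1qc at −0.85 with WT replicates 1, 5 and 6 alone; and 4933436C20Rik, which ranged from −0.039 to 0.13 as each WT library was left out, at −0.010 without WT replicate 2 and −0.039 without replicate 3. The cause was not tested. Counts of list members with other WT libraries were chosen after seeing the data.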

Other observations

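The transcript table, used above only for depths, read floors and the highest-transcript setting, gave each transcript's share of its gene. Of 2096 genes with at least 2 transcripts and a signal of at least 100 in V2a and every WT library, 26 had a transcript whose share in V2a lay at least 25 percentage points outside the WT range. The genes named here were chosen after their values were seen. In Atp8a1, a phospholipid flippase, 1 transcript held 16% of the signal in V2a, against 74.2% to 81.8% in WT, with 22% in V1 and 12.1% in V3. In Cntnap2, an axonal adhesion protein, 1 transcript held 13% in V2a, against 66.4% to 82.6% in WT, with 42.7% in V1 and 37.8% in V3. In Dpp6, an auxiliary subunit of potassium channels, 1 transcript held 87.4% in V2a, against 28.8% to 43.6% in WT. No test was made on these shares, and how reads common to several transcripts were divided is not given in the sources used here.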
